A study of Mus musculus with 32 samples.

Results

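The p53-induced apoptosis effectors are a group of 9 genes that the tumour suppressor p53 switches on and whose products push a cell towards programmed death. They were found by their gene name among the non-control probes of 32 Agilent arrays, which gave 11 probes for the 9 genes out of 39429 probes in all. All 9 passed the detection filter, which left 15159 genes to test. Bax, Bbc3 and Pmaip1 act at the mitochondrion, Fas and Tnfrsf10b are death receptors at the cell surface, and Aen, Ei24, Perp and Trp53inp1 have other parts in the response.

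Whole blood was drawn by cardiac puncture from male C57BL/6 mice, 24 h after X-rays or sham treatment, and each mouse gave 1 array. Of the ATM-/- mice (here Atm) 6 received 4 Gy and 5 none. Of the Scid mice 5 received 3 Gy and 5 none, and of the wild type mice (WT) 5 received 8 Gy and 6 none. Sham-treated groups are written as 0 Gy. ATM is the kinase that passes the signal of a DNA double-strand break to p53, and the Scid mutation lies in Prkdc, a kinase needed to join broken DNA ends and to assemble antigen receptor genes. The dose was chosen for each genotype to be equally lethal, so genotype and dose change together and cannot be told apart when responses are compared. The RNA was depleted of globin transcripts in all groups. The labels give no age.

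In an undamaged cell p53 is kept low by the ubiquitin ligase MDM2. After DNA breaks ATM and related kinases act on p53 and MDM2, p53 accumulates, binds DNA as a tetramer and transcribes its targets, some of which arrest the cell cycle while others start apoptosis. Blood lymphocytes are among the most radiosensitive cells of the body, and p53-dependent apoptosis is a well known part of their loss after irradiation.

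Promoters are shown for the 3 members in which the p53 decamer, a unit of the p53 binding site, was found. Each is the 250 bases before a RefSeq transcription start in GRCm38.p6, 5′ to 3′ on the gene's strand, with the decamer in capitals.
Bax, chr7:45466899-45467148, minus strand: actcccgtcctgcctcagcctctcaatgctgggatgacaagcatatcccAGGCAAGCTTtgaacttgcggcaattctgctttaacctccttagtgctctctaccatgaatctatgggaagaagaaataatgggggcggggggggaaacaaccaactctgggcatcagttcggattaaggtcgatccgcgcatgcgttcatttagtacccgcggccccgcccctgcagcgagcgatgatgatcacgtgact
Aen, chr7:78895808-78896057, plus strand: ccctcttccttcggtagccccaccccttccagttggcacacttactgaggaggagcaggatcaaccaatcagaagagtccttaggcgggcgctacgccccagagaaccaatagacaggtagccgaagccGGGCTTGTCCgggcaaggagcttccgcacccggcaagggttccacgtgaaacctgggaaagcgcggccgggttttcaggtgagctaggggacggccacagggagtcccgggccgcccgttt
Ei24, chr9:36797335-36797584, minus strand: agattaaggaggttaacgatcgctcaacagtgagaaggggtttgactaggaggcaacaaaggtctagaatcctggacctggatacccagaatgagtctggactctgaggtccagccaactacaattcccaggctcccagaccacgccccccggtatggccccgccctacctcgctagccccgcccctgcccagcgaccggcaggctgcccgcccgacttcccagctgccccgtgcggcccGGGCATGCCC

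The decamer (the p53 consensus, which reads the same on both strands, so that a match holds for both) begins 201 bases before the start in Bax, 121 bases before it in Aen and 10 bases before it in Ei24. RefSeq promoter entries were matched for 5 members, with 8 promoters of 300 bases that reach from 250 bases before a start to 50 after it, and 4 of these 8 hold the decamer, counting the same Aen match from its 2 starts. Of all 32851 such promoters, 2745 hold it (8.36%). No window of Bbc3 (3 promoters) or Fas (1 promoter) holds these letters. A pair of decamers at most 13 bases apart, the full p53 site, occurs in 24 of all promoters (0.0731%) and in 0 of the members' 8. A match describes these letters and is not evidence of binding.

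Levels are given as log2 of the processed signal over the 75th percentile of the array, so that 0 is the brightness of the probe at that percentile. For arrays, signal over background takes the place of read depth. Probes that the scanner software put well above background made up 20% to 48.1% of all probes in Atm 4 Gy, 36.6% to 43.4% in Atm 0 Gy, 32.5% to 43.2% in Scid 3 Gy, 25% to 47.7% in Scid 0 Gy, 45.7% to 58.6% in WT 8 Gy and 28% to 53.3% in WT 0 Gy. Bax, Bbc3, Pmaip1, Aen, Fas and Trp53inp1 (6 of the 9) reached that mark on 4 or more arrays in every group. Perp reached it in both WT groups only, and Tnfrsf10b and Ei24 in WT 8 Gy only, so these last 2 entered the test through the group in which they are high. The 75th percentile of the signal before scaling was 127 to 232 in WT 8 Gy and 24.1 to 203 in WT 0 Gy. It was 17.7 to 111 in Atm 4 Gy, 28.1 to 95.8 in Atm 0 Gy, 20.2 to 63.8 in Scid 3 Gy and 17.1 to 60.5 in Scid 0 Gy. The mark goes by the signal before scaling, so at the same level a dimmer array can miss it. The part of array brightness in these counts was not tested. The arrays' number limits the precision.

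Before the results, 4 arrays must be named on which a B cell gene goes against the label, on 3 of them together with a T cell gene. Ms4a1, the B cell surface protein CD20, lay between -4.29 and -2.09 on the other Scid arrays and between 0.14 and 4.72 on the other Atm and WT arrays. The array labelled Scid 0 Gy replicate 4 read 3.68, and those labelled WT 8 Gy replicate 3, WT 0 Gy replicate 3 and WT 0 Gy replicate 6 read -2.79, -3.25 and -2.71. Cd3d, part of the T cell receptor complex, read 3.27, 2.99, -1.91 and -2.01 on these same arrays, so on 3 of the 4 it went against the label as well. Cd3d separates the labels less cleanly. It lay between -3.74 and 0.60 on the other Scid arrays and between 0.33 and 3.66 on the other Atm and WT arrays. It was also well above background on Scid 0 Gy replicate 3 (-2.09) and Scid 3 Gy replicate 2 (0.60). Both genes were singled out after their values were seen. No array was moved to another group. Beside many of the results on WT and Scid that these arrays touch, values without them are given. The probes for the targeted genes cannot check the labels, because the 2 Atm probes were well above background on 0 and 3 of 32 arrays and the Prkdc probe on 2.

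**Figure D1:**
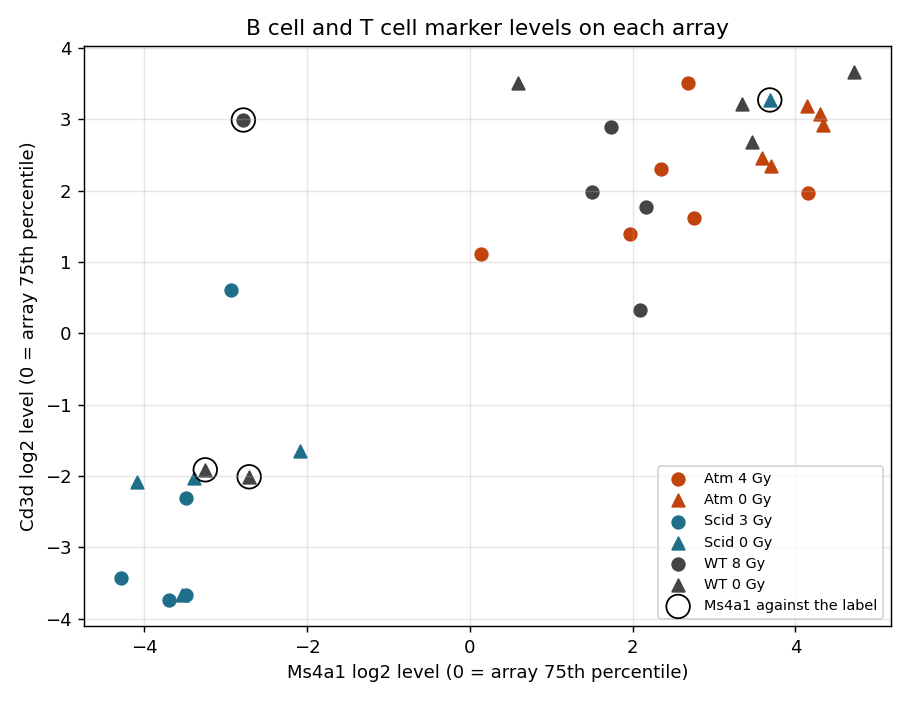
Level of the B cell gene Ms4a1 (x axis) against the T cell gene Cd3d (y axis) on each of the 32 arrays, both as log2 over the array's 75th percentile; circles are irradiated and triangles sham-treated mice, coloured by labelled genotype. The 4 circled arrays have a Ms4a1 level against their label: 1 labelled Scid at 3.68 among the Atm and WT arrays, and 3 labelled WT at -3.25 to -2.71 among the Scid arrays.

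After 8 Gy, Aen, Bax and Bbc3 rose in WT blood, by 2.45, 1.58 and 1.35 on the log2 scale, and none of the 9 members fell. Of the 6 members detected in every group these are 3. Tnfrsf10b and Ei24 were called higher too, which makes 5 of 9, but they passed the detection filter only through WT 8 Gy and their controls were above background on 1 and 2 of 6 arrays, so their calls are not counted as support. Across all 15159 genes 1.13% were called higher in that comparison, and 7.2% were called in either direction (172 higher and 920 lower). Scaled to the 75th percentile of probes detected on all arrays the split was 789 higher and 619 lower, and scaled to the spike-ins it was 5244 and 158. The median change of the 6 members detected in every group was 1.24, against -0.024 for all genes, and all 6 differences were above 0, as were 48.8% of all genes. A call is an adjusted p under 0.05 from limma, Benjamini-Hochberg over all genes tested.

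In Scid blood after 3 Gy, 1 member rose, Aen, by 2.04, where 0.0594% of all genes were called higher. For the 6 members detected in every group the median change was 0.88 (all genes 0.0095), and 5 of 6 differences were above 0, as were 50.7% of all genes. In Atm blood after 4 Gy none of the 9 passed (0 of 9, limma), where 0.0726% of all genes were called higher and 0.237% in either direction. There the median of the 6 was 0.64 (all genes -0.16), 5 of 6 differences were above 0, against 37.9% of all genes, and 2 had an unadjusted p under 0.05, against 12.1% of all genes (1830). Since 3 genotypes at 3 doses were compared with their own controls, a call in one genotype and none in another does not show a difference between them. The tests of that difference are given further on.

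**Figure D2:**
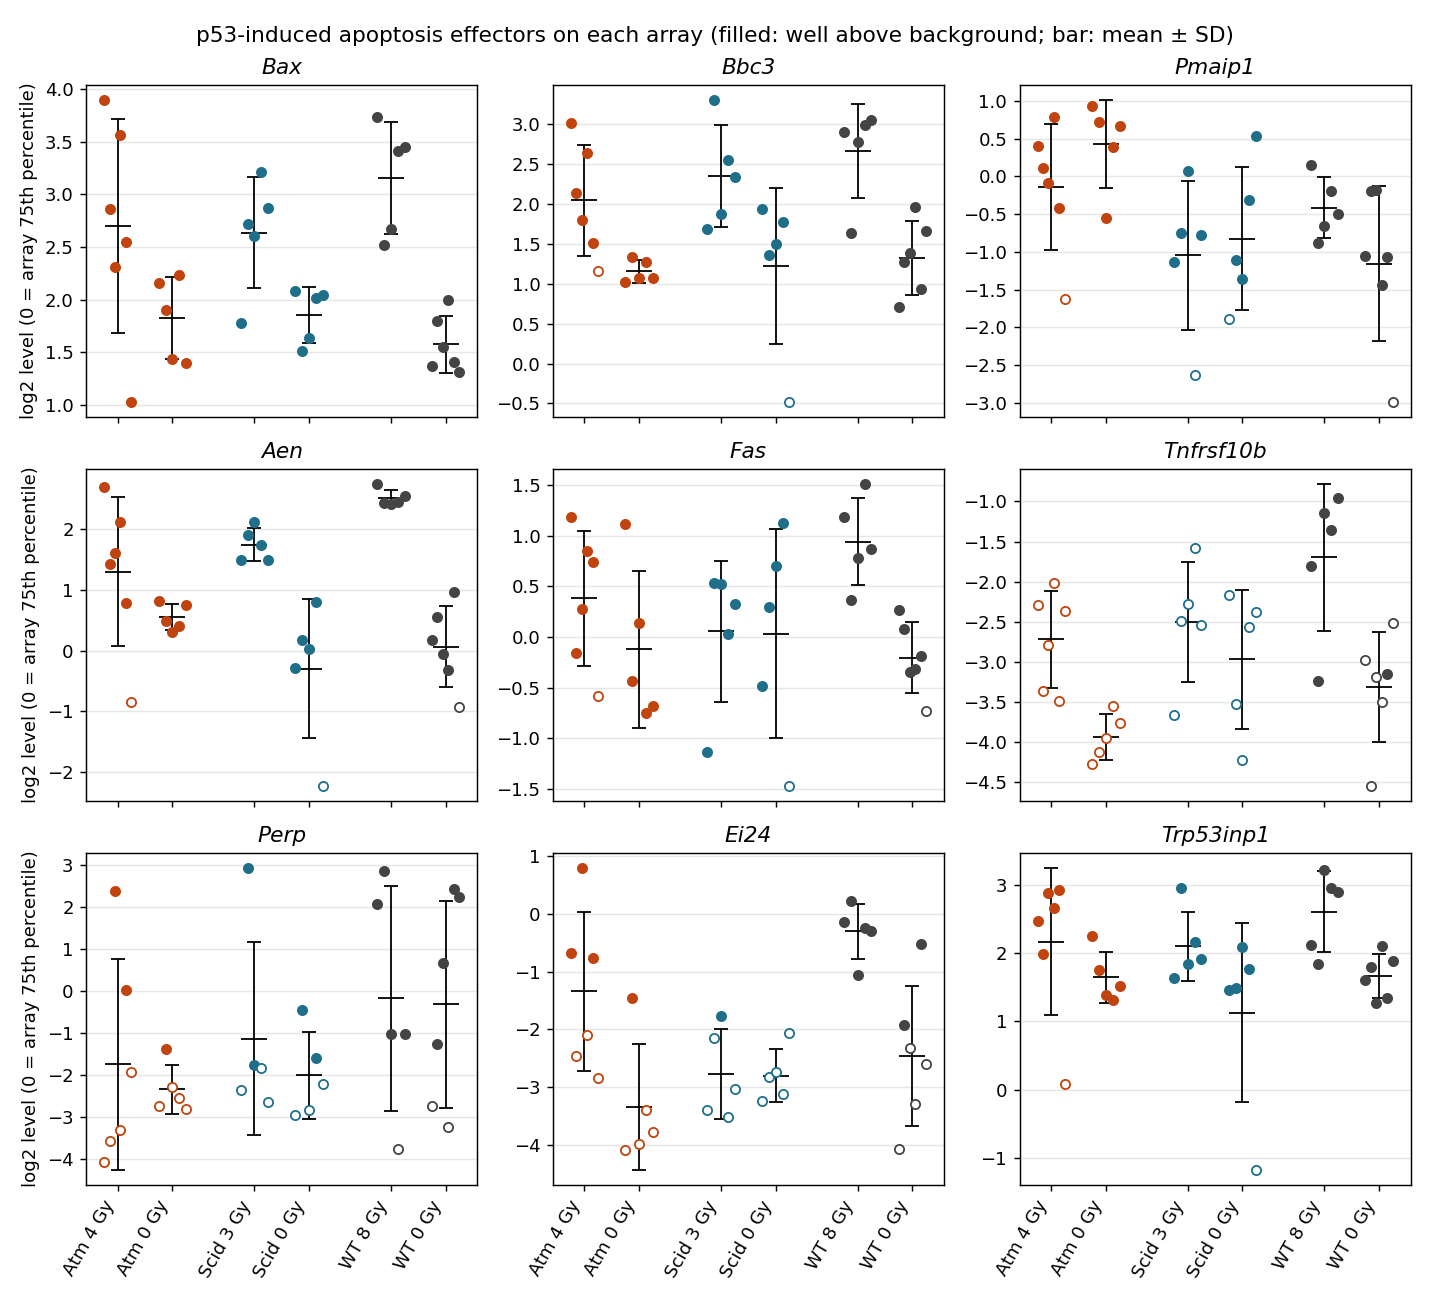
Level of each member on each array, as log2 over the array's 75th percentile (y axis), by group (x axis); filled points are well above background, open points are not, and the bars are the mean ± SD. Aen in WT 8 Gy lies between 2.41 and 2.74, above all WT 0 Gy arrays, while Tnfrsf10b is not well above background on any Atm or Scid array.

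Aen encodes a nuclease that digests DNA in dying cells, and it changed by more than any other member called in WT and Scid. Its levels were 2.74, 2.43, 2.41, 2.44 and 2.54 on the WT 8 Gy arrays. On the WT 0 Gy arrays they ran from -0.92, with a median of 0.054, to 0.97. The irradiated arrays lay close together and above every control. The difference was 2.45 (SE 0.46, 95% interval 1.51 to 3.38, 5.45-fold, limma adjusted p = 0.00046). It was 2.52 within the first scan day (1 array at 8 Gy, 3 at 0 Gy) and 2.10 within the second (3 at 8 Gy, 2 at 0 Gy). Without the 4 arrays whose Ms4a1 goes against the label it was 2.19 (SE 0.53, adjusted p = 0.0124).

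In Scid blood Aen read 1.49, 1.90, 2.11, 1.73 and 1.49 after 3 Gy. The Scid 0 Gy arrays read -0.28, 0.17, 0.019, 0.80 and -2.22, so here too no array overlapped. The difference was 2.04 (SE 0.48, 95% interval 1.07 to 3.02, 4.13-fold, adjusted p = 0.026). It was 1.52 within the first scan day (2 arrays at 3 Gy, 4 at 0 Gy) and 4.14 within the second (2 at 3 Gy, 1 at 0 Gy). Without the array labelled Scid 0 Gy replicate 4, the highest control, it was 2.32 (adjusted p = 0.0184). Of all genes, 0.455% had all Scid 3 Gy arrays above all Scid 0 Gy arrays. The lowest control, Scid 0 Gy replicate 5, had the lowest share of probes above background in its group, and without it the difference was 1.57 (adjusted p = 0.04998). The call was lost without any 1 of Scid 3 Gy replicates 3, 4 or 5 (adjusted p = 0.0907, 0.0627 and 0.0517) or Scid 0 Gy replicates 1 or 2 (0.0664 and 0.0658). Over 16 other ways of processing the difference ran from 0.52 to 2.35 and was called in 9. The 0.52 came with normexp background correction, described with Tnfrsf10b (adjusted p = 0.9997), and the deposited series table gave 1.36 (adjusted p = 0.254).

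In Atm blood Aen ran from -0.84, with a median of 1.52, to 2.68 after 4 Gy. The Atm 0 Gy arrays read 0.81, 0.48, 0.31, 0.41 and 0.75. Of the 6 irradiated arrays, 4 lay above all controls and 1, replicate 6, below them all. The difference was 0.75 (SE 0.46, 95% interval -0.19 to 1.68, adjusted p = 0.562). The Atm arrays were uneven over scan days, and no Atm 0 Gy array was scanned on the second day. Within the first day the difference was 2.18 (1 array at 4 Gy, 4 at 0 Gy), and within the third it was -1.59 (1 array of each). With 1 array left out at a time it ran from 0.47, without Atm 4 Gy replicate 1, to 1.17, without replicate 6.

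Aen has a second probe, 10 bases upstream of the one used (chr7:86053197-86053256 against chr7:86053207-86053266, mm9), and the 2 share 50 of 60 bases. It changed by 0.86 in Atm, 2.26 in Scid and 2.25 in WT (adjusted p = 0.418, 0.00814 and 0.00058 over all probes kept), so both probes gave calls in the same comparisons. They share most of their sequence and are not independent measurements.

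Among the genes that act at the mitochondrion, Bax encodes the protein that opens the outer membrane. It read 3.73, 2.52, 2.67, 3.41 and 3.45 on the WT 8 Gy arrays. The WT 0 Gy arrays ran from 1.32, with a median of 1.48, to 1.999, below all irradiated arrays. The difference was 1.58 (SE 0.36, 95% interval 0.84 to 2.32, 2.99-fold, adjusted p = 0.00428), 2.16 within the first scan day and 1.16 within the second. Bax was the only member well above background on all 32 arrays. Without the 4 arrays whose Ms4a1 goes against the label the difference was 1.63 (adjusted p = 0.0314), and with the slide as a block it was 1.43 and not called (adjusted p = 0.0825).

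In Scid blood Bax read 1.78, 2.72, 2.61, 3.21 and 2.87 after 3 Gy, against 2.08, 1.51, 1.63, 2.02 and 2.05 at 0 Gy. Of the 5 irradiated arrays, 4 lay above all controls. The difference was 0.78 (SE 0.38, 95% interval 0.0083 to 1.55, adjusted p = 0.511), 0.44 within the first scan day and 0.86 within the second. In Atm blood Bax ran from 1.03, with a median of 2.70, to 3.89 after 4 Gy, against 2.16, 1.91, 1.44, 2.24 and 1.40 at 0 Gy. There 5 of the 6 irradiated arrays lay above all controls and replicate 6 below them all. The difference was 0.87 (SE 0.36, 95% interval 0.14 to 1.61, adjusted p = 0.299), 1.96 within the first scan day and -0.37 within the third. Array weights, which give less weight to arrays that deviate from their group, put Bax past the threshold in both (1.04 in Scid, adjusted p = 0.0187, and 1.09 in Atm, adjusted p = 0.0348). Without the 4 arrays whose Ms4a1 goes against the label it differed by 0.82 in Scid (adjusted p = 0.685).

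Bbc3 encodes PUMA, a BH3-only protein that frees BAX from its inhibitors. On the WT 8 Gy arrays it read 2.90, 1.63, 2.78, 2.99 and 3.06. The WT 0 Gy arrays ran from 0.72, with a median of 1.33, to 1.96. All but replicate 2 of the irradiated arrays lay above every control. Within the first and second scan days Bbc3 differed by 1.77 and 1.02, and within slides 4 and 5 (1 array of each group) by 1.51 and -0.33. Over all arrays the difference was 1.35 (SE 0.39, 95% interval 0.55 to 2.14, 2.54-fold, adjusted p = 0.0282). Leaving out 1 array ended this call for 5 of 11 arrays, against 2 of 11 for Ei24, 1 of 11 for Tnfrsf10b and 0 of 11 for Aen and Bax. It was not called with the slide as a block (1.06, adjusted p = 0.309) or array median scaling (adjusted p = 0.0536), without the 4 arrays whose Ms4a1 goes against the label (1.42, adjusted p = 0.0968), nor without the 4 arrays richest in hepatocyte transcripts, which are named with Perp (1.54, adjusted p = 0.0512), nor without WT 8 Gy replicates 1, 3, 4 or 5 (adjusted p = 0.0774, 0.0523, 0.0758 and 0.0678) or WT 0 Gy replicate 1 (0.0742), each left out alone.

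Bbc3 read 1.69, 3.31, 1.87, 2.56 and 2.33 in Scid 3 Gy blood, against 1.94, 1.36, 1.505, 1.78 and -0.48 in Scid 0 Gy blood. The difference was 1.13 (SE 0.41, adjusted p = 0.23), with 3 of the 5 irradiated arrays above all controls. Without the outlying Scid 0 Gy replicate 5 it was 0.71 (adjusted p = 0.412), and without the 4 arrays whose Ms4a1 goes against the label 1.27 (adjusted p = 0.251). In Atm blood Bbc3 ran from 1.17, with a median of 1.97, to 3.02 after 4 Gy, against 1.02, 1.34, 1.07, 1.27 and 1.07 at 0 Gy. The controls lay in a narrow band and 5 of the 6 irradiated arrays were above it. The difference was 0.89 (SE 0.39, adjusted p = 0.332).

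Pmaip1, which encodes the BH3-only protein NOXA, did not pass in any of the 3 comparisons. It averaged -0.14 ± 0.83 in Atm 4 Gy and 0.43 ± 0.58 in Atm 0 Gy blood (SD, n = 6 and 5), a difference of -0.57 (SE 0.49, adjusted p = 0.73). In Scid it averaged -1.04 ± 0.99 after 3 Gy and -0.82 ± 0.95 at 0 Gy (SD, n = 5 each), a difference of -0.22 (adjusted p = 0.946). In WT it averaged -0.42 ± 0.40 after 8 Gy and -1.15 ± 1.03 at 0 Gy (SD, n = 5 and 6), a difference of 0.74 (SE 0.49, adjusted p = 0.415). Without the 4 arrays whose Ms4a1 goes against the label the differences were -0.093 in Scid and 0.58 in WT (adjusted p = 0.999 and 0.623). Without WT 0 Gy replicate 6 alone that in WT was 0.37, and without Atm 4 Gy replicate 6 that in Atm was -0.27. The groups overlapped each time.

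Of the death receptors, Fas read 1.18, 0.37, 0.77, 1.51 and 0.86 on the WT 8 Gy arrays. The WT 0 Gy arrays ran from -0.73, with a median of -0.25, to 0.27. No control reached the lowest irradiated array, which made Fas, with Aen and Bax, 1 of 3 members whose WT groups did not overlap, where 1.19% of all genes had all WT 8 Gy arrays above all WT 0 Gy arrays. Its difference of 1.14 (SE 0.41, 95% interval 0.30 to 1.99) nevertheless missed the threshold over all genes (adjusted p = 0.093). It was called with normexp background correction, 2 other scalings (to the 75th percentile of probes detected on all arrays and to the spike-ins), the deposited series table, array weights and a fit of the 2 WT groups alone (adjusted p = 0.00844 to 0.0469). It was farther from the threshold with quantile or array median scaling, with the slide (adjusted p = 0.319), scan day or replicate as a block, without the 4 arrays richest in hepatocyte transcripts (0.203) and without the 4 arrays whose Ms4a1 goes against the label (1.02, adjusted p = 0.299). In Scid and Atm blood Fas differed by 0.022 (SE 0.43) and 0.50 (SE 0.41), with adjusted p of 0.995 and 0.707. The value in Scid was 0.30 without the 4 arrays whose Ms4a1 goes against the label, and the value in Atm was 0.81 without Atm 0 Gy replicate 1.

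Tnfrsf10b is the mouse receptor for the death ligand TRAIL. Its probe was well above background on 5 of 5 WT 8 Gy arrays and 1 of 6 WT 0 Gy arrays, and on none of the 21 Atm and Scid arrays, so no fold is given for those genotypes. It read -1.58 on Scid 3 Gy replicate 4, which missed that mark, and -3.23 on WT 8 Gy replicate 2, which reached it. In Atm all 6 irradiated arrays (-3.49 to -2.02) lay above all 5 controls (-4.28 to -3.56), as in 0.429% of all genes. The missing marks therefore do not show that Tnfrsf10b failed to respond in Atm or Scid. The WT 8 Gy arrays read -1.80, -3.23, -1.14, -1.36 and -0.95, and the WT 0 Gy arrays ran from -4.54, with a median of -3.17, to -2.52. The difference was 1.61 (SE 0.43, adjusted p = 0.0151) and rests on a signal near background. With normexp, which models the local background in place of the scanner's own subtraction, it was -0.020 (adjusted p = 0.957). That setting also adds 50 to every signal, which by itself draws differences of dim probes towards 0. The parts of the background model and of the added 50 were not separated. The difference was not called without WT 8 Gy replicate 5 (adjusted p = 0.0522) or without the 4 arrays whose Ms4a1 goes against the label (1.70, adjusted p = 0.0557). It was called without the 3 whose Cd3d does too (1.84, adjusted p = 0.0203). Nor was it called with the slide as a block (1.08, adjusted p = 0.235) or the scan day as a block (1.39, adjusted p = 0.0854). A fit of the 2 WT groups alone did not call it either (adjusted p = 0.0612).

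Ei24 encodes a membrane protein of the endoplasmic reticulum, first isolated as a gene induced by etoposide, and is a p53 target with a part in autophagy. It was well above background on all 5 WT 8 Gy arrays and on 2 of 6 WT 0 Gy arrays. The WT 8 Gy arrays read -0.14, 0.22, -1.07, -0.26 and -0.30. The WT 0 Gy arrays ran from -4.06, with a median of -2.46, to -0.53. The difference was 2.15 (SE 0.57, adjusted p = 0.0157), with 4 of 5 irradiated arrays above all controls. With normexp, and the same 50 added to every signal, it was 0.17 (adjusted p = 0.594). The call was lost without WT 8 Gy replicate 2 (adjusted p = 0.0501), without WT 0 Gy replicate 1 (1.83, adjusted p = 0.0569) and without the 4 arrays whose Ms4a1 goes against the label (2.33, adjusted p = 0.0586). It was also lost with the slide as a block (2.03, adjusted p = 0.164) and with the scan day as a block (1.90, adjusted p = 0.0828).

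In Atm blood Ei24 was above background on 3 of 6 arrays after 4 Gy, with levels from -2.84 to 0.79 and a median of -1.43. It was above background on 1 of the 5 Atm 0 Gy arrays, which read -4.09, -1.45, -3.98, -3.40 and -3.77. The difference, 1.99 (SE 0.57, 95% interval 0.83 to 3.16, adjusted p = 0.0959), was about as large as in WT and missed the threshold, and array weights put it past the threshold (1.97, adjusted p = 0.0256). In Scid blood Ei24 was above background on 1 of 10 arrays, so no fold is given. The sham-treated arrays with Ei24 above background were Atm 0 Gy replicate 2 and WT 0 Gy replicates 2 and 5. Their hepatocyte markers averaged 4.75, 4.97 and 9.28, the highest of the sham-treated arrays. Without the 4 arrays richest in hepatocyte transcripts, named with Perp, Ei24 differed by 1.57 in Atm and 2.30 in WT (adjusted p = 0.168 and 0.0145). The part of other tissue in Ei24 was not tested.

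Trp53inp1 encodes a stress-induced protein that promotes the phosphorylation of p53. It averaged 2.17 ± 1.08 in Atm 4 Gy and 1.65 ± 0.38 in Atm 0 Gy blood (SD, n = 6 and 5), 2.10 ± 0.51 in Scid 3 Gy and 1.13 ± 1.31 in Scid 0 Gy blood (SD, n = 5 each), and 2.61 ± 0.59 in WT 8 Gy and 1.67 ± 0.32 in WT 0 Gy blood (SD, n = 5 and 6). The differences of 0.53, 0.98 and 0.94 did not pass (adjusted p = 0.741, 0.535 and 0.249). Over 16 other ways of processing the difference in WT ran from 0.48 to 2.28. It stayed uncalled in 12 of them and was called in the rest, with an adjusted p as low as 0.0016. Without Atm 4 Gy replicate 6 the difference in Atm was 0.94, and without Scid 0 Gy replicate 5 that in Scid was 0.40 (adjusted p = 0.343 and 0.698). Those in Scid and WT were 1.14 and 0.74 without the 4 arrays whose Ms4a1 goes against the label. Its probe lies at chr4:11101174-11101233 (mm9). A dimmer probe of the same gene at chr4:11092530-11092589, 8644 bases upstream, gave 1.83 in Atm (SE 0.46, unadjusted p = 0.00035, adjusted p = 0.0615 over all probes kept), 0.41 in Scid and 1.34 in WT (adjusted p = 0.0713). The 2 probes thus differ most in Atm blood, where the dimmer one was above background on 5 of 6 irradiated and 2 of 5 control arrays.

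Perp encodes a membrane protein of epithelial junctions that is also a p53 effector. It was well above background on 15 of 32 arrays and differed by 0.60, 0.88 and 0.14 in Atm, Scid and WT, each with an SE above 1 (1.18, 1.23 and 1.18) and an adjusted p of 0.898 or more. Its level exceeded 2 on 6 arrays, the lowest at 2.07, and the next array read 0.66. Of these 6 arrays, 4 are the ones richest in hepatocyte transcripts, by a line at 8 drawn after the values were seen: Atm 4 Gy replicate 3, WT 8 Gy replicates 1 and 2 and WT 0 Gy replicate 5, whose 6 measured hepatocyte markers averaged 8.60 or more, against 5.89 or less elsewhere. The next in hepatocyte level, Atm 4 Gy replicate 5 at 5.89 and WT 0 Gy replicate 2 at 4.97, had Perp at 0.015 and -1.27. Another of the 6 is Scid 3 Gy replicate 2, where Perp read 2.93, the hepatocyte markers -0.18 and Krt5, a keratin of skin looked up after the values were seen, 5.52. The last is WT 0 Gy replicate 6, with 2.24, 0.36 and 0.52. Without the 4 richest arrays Perp differed by -0.23 in Atm and -1.07 in WT (adjusted p = 0.959 and 0.730), and without the 4 arrays whose Ms4a1 goes against the label by 0.98 in Scid and 1.24 in WT. The part of other tissue in these values was not tested.

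**Figure D3:**
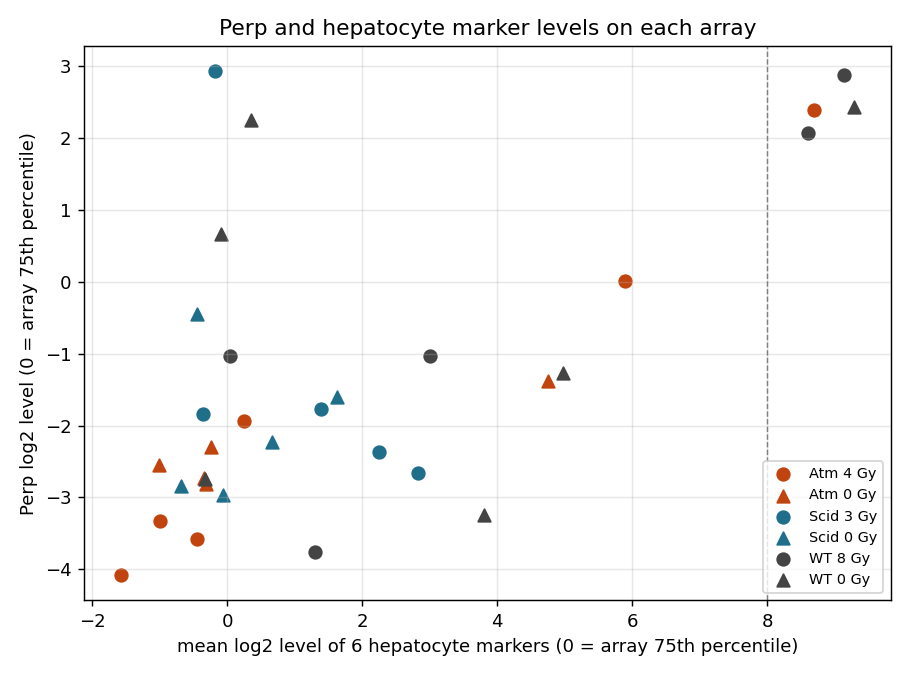
Perp level (y axis) against the mean level of 6 hepatocyte marker genes (x axis) on each of the 32 arrays, both as log2 over the array's 75th percentile; circles are irradiated and triangles sham-treated mice. All 4 arrays to the right of the dashed line at 8 have a Perp level of 2.07 or more, and 2 arrays with few hepatocyte transcripts, at 2.93 and 2.24, do too.

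**Figure D4:**
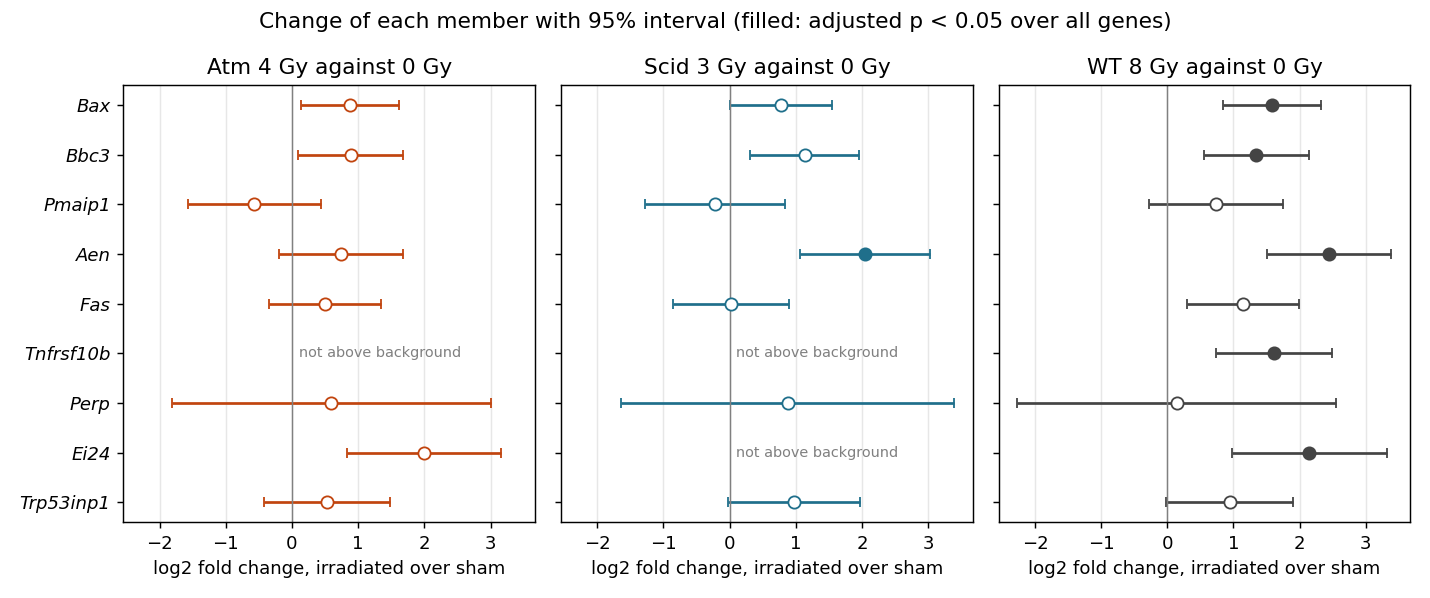
Log2 fold change of each member (x axis), irradiated over sham-treated, in Atm, Scid and WT blood, with 95% intervals; filled points have an adjusted p under 0.05 over all 15159 genes. In WT 5 of the 9 members are filled, in Scid Aen alone, and in Atm none. No point is drawn for Tnfrsf10b in Atm and Scid or Ei24 in Scid, where the signal at background gave no measurable fold.

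The levels without irradiation were compared next. Of the 9 members 0 were called in Atm against WT or in Scid against WT at 0 Gy, where 0% of all genes were called (0 of 15159 by limma in each, with 343 and 498 at an unadjusted p under 0.05). None of the 9 had all sham-treated Atm or Scid arrays above all sham-treated WT arrays, where 0.0858% and 0.0198% of all genes did. Pmaip1 read 0.93, 0.72, -0.55, 0.39 and 0.66 in Atm 0 Gy blood, against -2.98 to -0.19 with a median of -1.06 in WT 0 Gy blood. It was 1.58 higher in Atm (SE 0.49, 95% interval 0.58 to 2.59, unadjusted p = 0.00308, adjusted p = 0.9996), with 4 of 5 Atm arrays above all WT arrays, and fails the correction. Perp was lower by 2.03 in Atm and 1.70 in Scid (SE 1.18 each, adjusted p = 0.9996 and 0.899), and the WT arrays included replicates 5 and 6 named above. Bax, Bbc3, Aen, Fas and Trp53inp1 differed by -0.17 to 0.49 between Atm and WT, and by -0.54 to 0.28 between Scid and WT. Without the 4 arrays whose Ms4a1 goes against the label, 3 of them in these sham-treated groups, Aen differed by -0.92 between Scid and WT, against -0.37 with them, and Trp53inp1 by -0.75 (adjusted p = 0.271 and 0.390). Pmaip1 was then 1.37 higher in Atm than in WT, and Perp differed by -1.15 in Atm and -0.91 in Scid.

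The responses were then tested against each other. The response of 0 of the 9 members in Atm, and of 0 in Scid, differed from that in WT at an adjusted p under 0.05. Of all genes 0% were called in either test (limma, 1296 and 1080 genes at an unadjusted p under 0.05). Both tests use the same WT arrays, so they are not independent. Among the 6 members detected in every group the difference farthest from 0 was that of Aen in Atm, 1.70 below the WT response (SE 0.65, 95% interval -3.02 to -0.38, unadjusted p = 0.0135, adjusted p = 0.481). For Aen in Scid the difference was -0.40 (95% interval -1.75 to 0.95). For Bax the 2 differences were -0.71 (95% interval -1.75 to 0.34) in Atm and -0.80 (-1.87 to 0.27) in Scid, intervals that leave room for equal responses and for a response in WT larger by more than 1 on the log2 scale. Without the 4 arrays whose Ms4a1 goes against the label the differences for Aen were -1.45 in Atm and 0.13 in Scid. Those for Bax were then -0.76 and -0.81 (limma adjusted p of 0.92 or more for each).

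Further genes of the p53 pathway were counted from lists of its known members. Of 29 other p53 targets measured, 10 rose and 3 fell in WT blood, with a median change of 0.56. Of all genes 1.13% were called higher and 6.07% lower in WT, and 0.0594% were called higher in Scid. Cdkn1a, which encodes the cell cycle inhibitor p21, averaged 2.24 in WT 8 Gy and -1.59 in WT 0 Gy blood, a rise of 3.83 (SE 0.49, adjusted p = 3.1e-06). Gdf15, a stress cytokine, rose by 3.49, the thiamine transporter gene Slc19a2 by 2.54, Phlda3 by 2.28 and Zmat3, an RNA-binding protein, by 2.21, while the phosphatase gene Ptpn14 fell by 2.26. With the 4 arrays whose Ms4a1 goes against the label left out, 7 rose and 2 fell in WT, and Slc19a2 was no longer called (2.34, adjusted p = 0.0767). In Scid blood 2 of the 29 rose, Gdf15 by 3.69 (adjusted p = 0.0482) and Cdkn1a by 3.18 (adjusted p = 0.00229), and without those arrays Cdkn1a alone was called (3.42, adjusted p = 0.00399) and Gdf15 was not (3.84, adjusted p = 0.0605). In Atm blood none of the 29 passed (median 0.039), and Cdkn1a differed by 1.25 (SE 0.49, adjusted p = 0.268). Mdm2 differed by 0.29, 0.97 and 1.07 in Atm, Scid and WT (adjusted p = 0.846, 0.319 and 0.0749). The 2 brightest, Abhd4 and Cdkn2d, differed by -0.98 and 0.039 in Atm.

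Of 34 measured genes of the apoptosis machinery downstream or beside the members, none rose and 1 fell in WT, where 6.07% of all genes were called lower and 1.13% higher. The 1 was Bcl2l1, which encodes the inhibitor BCL-XL and is abundant in maturing red cells. It averaged 6.94 in WT 8 Gy and 9.51 in WT 0 Gy blood, a fall of 2.58 (SE 0.47, adjusted p = 0.00034). The list's median change was 0.42 in WT. In Atm and Scid none of the 34 passed, with medians of -0.083 and -0.093. Bcl2l1 differed there by -1.58 and -1.22 (adjusted p = 0.128 and 0.329), and Mcl1, another inhibitor and the next brightest, by -0.70 and -0.29.

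None of the 5 measured genes of the list of p53 and its kinases passed in any of the 3 comparisons. Its brightest, Usp7, a protease that stabilizes p53 and MDM2, and Hipk2, a kinase of p53, differed by -0.38 and -0.24 in Atm, -0.15 and -0.52 in Scid and -0.22 and -0.79 in WT. Trp53 itself was above background on 8 of 32 arrays and did not pass the filter.

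The makeup of the blood moved with irradiation as well. Fewer cells of a type and less RNA per cell cannot be told apart in whole blood. The mean level of 9 erythroid markers lay between 3.08 and 4.73 in Atm 4 Gy and 4.91 and 5.24 in Atm 0 Gy, between 3.03 and 4.36 in Scid 3 Gy and 4.22 and 6.08 in Scid 0 Gy, and between 0.95 and 2.62 in WT 8 Gy and 3.79 and 5.94 in WT 0 Gy. Of these 9, 1, 3 and 6 fell in Atm, Scid and WT (1, 3 and 5 without the 4 arrays whose Ms4a1 goes against the label), and Ank1 was not above background on any WT 8 Gy array. Of all genes 0.165%, 1.01% and 6.07% were called lower in Atm, Scid and WT. The mean of 10 B cell markers ranged from -0.35 to 1.17 in Atm 4 Gy and 1.26 to 2.37 in Atm 0 Gy, from -1.57 to -1.18 in Scid 3 Gy and -2.33 to 0.90 in Scid 0 Gy, and from -1.62 to -0.61 in WT 8 Gy and -1.82 to 2.34 in WT 0 Gy. The ends at 0.90 in Scid 0 Gy and -1.82 in WT 0 Gy belong to arrays whose Ms4a1 goes against the label, and without the 4 such arrays the ranges were -2.33 to -0.60 in Scid 0 Gy, -1.18 to -0.61 in WT 8 Gy and 0.42 to 2.34 in WT 0 Gy. Of the 10, 1 fell in Atm and 4 in WT, and without those arrays 3 and 4 fell, with a median change in WT of -1.95 in place of -1.04. No Atm array was among those left out, and the median change in Atm stayed at -1.81. The fit shares its estimate of spread over all groups, so a call can move while the difference stays the same. Pax5 and Fcer2a were not above background on any Atm 4 Gy array, nor Ms4a1 and Ebf1 on any Scid 3 Gy array.

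The mean of 9 T cell markers ran from 1.49 to 2.63 in Atm 4 Gy and 2.40 to 2.81 in Atm 0 Gy, from 0.58 to 1.73 in Scid 3 Gy and 1.06 to 2.58 in Scid 0 Gy, and from 0.51 to 2.47 in WT 8 Gy and 1.36 to 3.21 in WT 0 Gy. Without those arrays it ran from 1.06 to 1.76 in Scid 0 Gy and from 2.38 to 3.21 in WT 0 Gy. Of the 9, Cd8a fell in WT (by 2.57), and without those arrays Cd5 and Cd8a did (2 of 9). In WT 6.07% of all genes were called lower and 1.13% higher. Cd8a and Cd3g were not above background on any Scid 3 Gy array. Of 7 monocyte markers 2 rose in WT, Ms4a6d by 2.38 and Cd14 by 2.07, and 1, Ms4a6d, without those arrays. The list averaged 0.75 to 1.93 in WT 8 Gy and -0.035 to 1.13 in WT 0 Gy. Of 6 NK cell, 8 neutrophil, 8 platelet, 6 hepatocyte and 4 heart muscle markers none passed in any genotype. Neutrophil and platelet markers were above background in every group. The part of these shifts in the members' values was not tested.

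By likeness over the 32 arrays (Pearson r over all 6 groups, given as a description, since group differences and array quality are shared by all genes) the nearest genes to Aen were Sac3d1 (0.89), Thyn1 (0.86) and Cdkn1a (0.86). Nearest to Bbc3 were Mdm2 (0.87), Ranbp9 (0.85) and Tbl1xr1 (0.83). Bax lay nearest to Oas1f (0.84), Oas1a (0.84) and Rhoc (0.81), where Oas1f and Oas1a are close paralogues that a probe may not separate. Ei24 lay nearest to Shb, Gm4951 and Slc19a2 (0.81 each), and Tnfrsf10b to Tmem87b (0.73), Pxdc1 (0.70) and Eva1c (0.69).

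**Figure D5:**
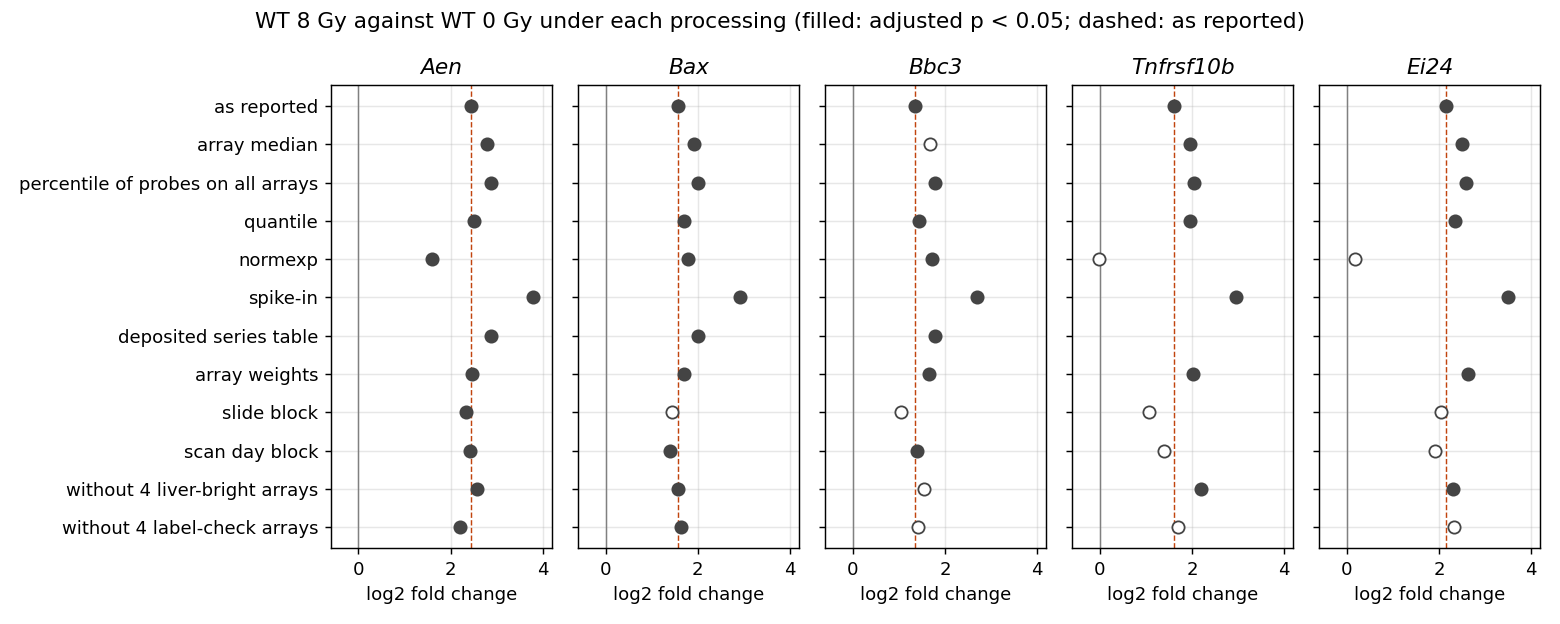
Log2 fold change of the 5 members called in WT, 8 Gy over 0 Gy (x axis), under the reported and 11 other ways of processing (rows); filled points have an adjusted p under 0.05 and the dashed line is the reported value. Aen stays filled in each row shown. Tnfrsf10b and Ei24 have no value in the deposited series table. They fall to -0.020 and 0.17 with normexp, which here also adds 50 to every signal.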

How the data were processed

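For each array the authors deposited the scanner's spot table, in which the intensity of a spot is its signal background-subtracted by Agilent Feature Extraction (12.0.2 per the submitters' processing notes, 11.5.1.1 per the file headers) and not normalized between arrays. The deposited series table holds log2 values of the same arrays. Shifted by 1 constant an array, 98.5% to 99.46% of them matched the spot tables on the log2 scale to 0.01, with column medians of 5.505 to 6.44. How that constant and the listed probes were chosen is unknown. Probe positions are in mm9, per the file headers.

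Control and outlier spots (125 to 324 an array) were dropped and spots of a probe averaged. Log2 signals were set to the array's 75th percentile. Probes had to pass the scanner's background flag on 4 or more arrays in some group (18367 of 39429 did), and a gene is its brightest kept probe. The 6 group means of all 32 arrays were fitted with limma 3.58.1 in R 4.3.3, in 7 comparisons, with two-sided p-values adjusted over 15159 genes. On simulated data for WT, 70 of 100 genes changed by 2 on the log2 scale and 9 of 100 changed by 1 were recovered. Members and lists were chosen with earlier results of these data known. All members are named, with up to 6 called genes of largest change per list (or the 2 brightest) and the 3 genes most like each called member. Alternatives changed the background correction (normexp, with 50 added to every signal), scaling, filter, probe rule, value table, weights, groups fitted, blocks (slide, scan day, replicate) and arrays left out. Python 3.11.15 read the files.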

Additional observations from a re-analysis of the deposited data

Results flagged for a closer look

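Of 54 groups of 5 or 6 values (9 members in 6 groups), 6 held an array far from the others, where chance gives about 1 in 20. Bbc3 read -0.48 on Scid 0 Gy replicate 5, against 1.36 to 1.94 on the others, and Trp53inp1 read -1.18 on the same array, against 1.46 to 2.09. This array gave the lowest value of its group for 4 of the 9 members. Trp53inp1 read 0.085 on Atm 4 Gy replicate 6, against 1.99 to 2.93, and that array gave the lowest value of its group for 7 of the 9 members and had the smallest share of probes above background of all arrays. Bbc3 read 1.63 on WT 8 Gy replicate 2, against 2.78 to 3.06. Ei24 read -1.45 on Atm 0 Gy replicate 2, against -4.09 to -3.40, and the hepatocyte markers on that array averaged 4.75. Perp read 2.93 on Scid 3 Gy replicate 2, against -2.65 to -1.76.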

How the results depend on the processing

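The WT count of 5 called members was 8 with spike-in scaling, where 34.6% of all genes were called higher, 1 (Bax, the 1 tested) with only probes above background on all arrays, 1 (Aen) with the slide as a block, 3 with the scan day as a block, 2 (Aen and Bax) without the 4 arrays whose Ms4a1 goes against the label, 3 without the 3 whose Cd3d does too, and 3 to 5 with each array left out in turn. The settings that leave out several arrays were chosen after the data were seen. The Scid count of 1 was 0 with normexp, quantile, array median or spike-in scaling, no filter, only probes above background on all arrays, the deposited series table or only the groups compared, 2 with array weights, and 0 to 1 with each array left out. The Atm count of 0 was 2 with array weights (Bax and Ei24, both higher) and 1 with spike-in scaling (Pmaip1, lower at -2.19), where 78.1% of all genes were called lower. The count of differing responses in Atm and WT was 8, all lower, with spike-in scaling, where 92.8% of all genes were called lower. In Atm and Scid against WT at 0 Gy, and between the Scid and WT responses, the count was 0 under every alternative run. For all genes called in Scid against WT at 0 Gy, leaving out the 4 arrays gave 39 higher and 254 lower, with no member among them. Over all genes, calls in WT were 172 higher and 920 lower, and they came to 277 and 193 with normexp, 148 and 523 with array median scaling, 426 and 601 with the series table, 1138 and 1956 with array weights, 38 and 500 with the slide block, and 80 and 492 without the 4 arrays. Total calls in Atm (36) and Scid (162) went down to 0 with the slide block in Atm and with normexp in Scid, and up to 110 higher and 433 lower in Atm and 117 and 1066 in Scid with array weights, leaving aside 6 and 11837 in Atm with spike-in scaling.

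With spike-in scaling the median change of all genes was -1.78 in Atm, 0.24 in Scid and 1.32 in WT. In Atm it reversed Bax (-0.75), Bbc3 (-0.73), Aen (-0.88), Fas (-1.12), Perp (-1.03) and Trp53inp1 (-1.10), which relative to that median are 1.03, 1.05, 0.90, 0.66, 0.75 and 0.68. In WT the median of all genes also moved to 0.13 with quantile, 0.32 with array median scaling and 0.41 with the percentile of probes detected on all arrays. Other differences changed sign as well. Tnfrsf10b in WT was -0.020 with normexp, Perp -0.49 with array weights and -1.07 without the 4 arrays richest in hepatocyte transcripts in WT, and -0.23 without them in Atm. In Scid, Pmaip1 was 0.12 with normexp, 0.0091 with spike-in scaling and 0.26 with the slide block, and Fas -0.18 with normexp, -0.022 with quantile, -0.20 with array median scaling, -0.077 with the series table and -0.29 with array weights. The response of Aen in Scid against WT was 0.00014 with the slide block, 0.13 without the 4 arrays whose Ms4a1 goes against the label and 0.15 without the 3. With each array left out, Perp ran from -0.23 to 1.06 in Atm, -0.14 to 1.27 in Scid and -0.62 to 1.04 in WT, and in Scid Pmaip1 from -0.50 to 0.18 and Fas from -0.35 to 0.32. The causes were not tested. Arrays with the same replicate number did not deviate together (median r 0.039 over 76 pairs, -0.73 to 0.49), and with replicate number as a block the members called stayed at 5 in WT, 1 in Scid and 0 in Atm. The signal of Tnfrsf10b, Ei24 and Perp near background, and 5 or 6 arrays a group, limit the precision.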
